A study of Mus musculus with 9 samples.

Results

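Pericytes and vascular smooth muscle cells are the mural cells of blood vessels, and 10 genes commonly used to mark them were followed here: Pdgfrb, Rgs5, Acta2, Tagln, Myh11, Cnn1, Cspg4, Kcnj8, Abcc9 and Lmod1. They were taken by symbol from the deposited gene table, where all 10 were found among 43644 genes. All 10 passed the filter on low values, which left 29107 genes tested. RNA came from coronal sutures of C57BL/6 mice aged 7 months; this suture is the band of fibrous tissue where the frontal bones of the skull meet the parietal bones. The wild type group without surgery (WT) had 3 libraries. The Twist1+/- group without surgery (MUT) and the Twist1+/- group that had suture regeneration surgery at 1 month of age (REG) also had 3 libraries each. Twist1 encodes a transcription factor of cranial mesenchyme, and loss of 1 copy is a known cause of premature suture fusion. Suture regeneration surgery removes a fused suture to let a new one form. The labels do not say what was implanted, whether MUT mice had sham surgery, whether animals were pooled, or whether 2 libraries could share an animal. The p-values therefore measure the spread between these libraries, which may be in part technical.

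Mural cells wrap the endothelial tube. Endothelial cells release platelet-derived growth factor B, which recruits and maintains mural cells through the receptor PDGFRB, and Notch signals between both cell types promote mural maturation. Pericytes of capillaries carry PDGFRB, the proteoglycan NG2 and the G-protein regulator RGS5. Smooth muscle cells of arteries and veins add a contractile apparatus of smooth muscle actin, myosin and actin-binding proteins, which serum response factor switches on through the CArG box of its target promoters. None of the 10 genes is exclusive to mural cells. PDGFRB and smooth muscle actin are also made by fibroblasts and myofibroblasts, which a bone suture holds in quantity.

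The libraries differed in depth and in background, and both touch every value below. WT libraries held 16356391 to 20019712 estimated reads, MUT libraries 2945636 to 10894209 and REG libraries 18276494 to 39377876. Background was taken as the read density over 1747 olfactory and vomeronasal receptor genes, whose products serve sensory neurons. That density, applied to the exon length of all genes, stood for 0.577% to 0.81% of the reads of WT libraries, 7.00% to 22.2% in MUT and 0.479% to 0.769% in REG. Twist1 itself fell by 3.26 on the log2 scale in MUT vs WT (adjusted p = 0.0109, limma over all genes tested), with 16.2, 23.3 and 23.1 in WT and 0.987, 8.09 and 0.548 in MUT, and stood at 3.76, 9.19 and 12.2 in REG, under all WT libraries and overlapping MUT. The REG libraries also differed among themselves: replicates 1 and 2 held far more RNA of skeletal muscle genes than replicate 3, and the sample numbers that end their column names repeat those of WT replicates 2 and 3, while that of REG replicate 3 repeats none. The protocol speaks of 3 pairs of samples, which the labels do not explain. In bulk tissue, fewer mural cells and less RNA per mural cell cannot be told apart.

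A sequence feature of this gene group is the CArG box, the 10-base element bound by serum response factor, and the stretches below are shown because they lie before 4 of the members. RefSeq promoter windows (GRCm38.p6) were available for 7 of the 10 members: Acta2, Cnn1, Lmod1, Cspg4, Rgs5, Kcnj8 and Abcc9. In the 250 bases before the start, an exact CArG box was found in 0 of these 7, against 1.47% of 32851 windows of the same length. A match with at most 1 base different lay before 4 of the 7, against 18.6% of all windows. Both strands are covered, since the element reads the same way on each. The E-box CANNTG, the element of Twist proteins and other basic helix-loop-helix factors, was in 5 of the 7 against 66.2% of windows. The stretches are given 5′ to 3′ on the strand of the gene, 30 bases each, with the near match in capitals. Of the 7 near matches 6 are printed, and the other, before Cspg4, overlaps the one shown and begins 1 base later. A match is a description of letters and not a shown binding site.
Acta2, chr19:34255438-34255467, minus strand: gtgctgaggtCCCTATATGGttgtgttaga
Acta2, chr19:34255388-34255417, minus strand: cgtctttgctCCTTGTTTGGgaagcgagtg
Lmod1, chr1:135324614-135324643, plus strand: gcccccttgtCTTTAAAAGGctaaactgct
Lmod1, chr1:135324639-135324668, plus strand: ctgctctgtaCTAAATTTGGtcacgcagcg
Cspg4, chr9:56864856-56864885, plus strand: tgtcccaaacCCTTAAAATGgggcatgggt
Kcnj8, chr6:142571641-142571670, minus strand: gagcagcgagCCTTTTAAAGatgtgtgtgc
The capitals begin 84 and 34 bases before the RefSeq start of Acta2, 189 and 164 before Lmod1, 238 before Cspg4 and 46 before Kcnj8. The gene spans given below come from another annotation, GENCODE, whose starts can differ. Both Acta2 stretches lie inside its GENCODE span (chr19:34241090-34255590). Acta2 and Cspg4 fell in MUT vs WT, while Lmod1 and Kcnj8 did not pass the test in any comparison.

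Of the 10 mural genes, 6 fell in MUT vs WT, 1 rose and 3 did not pass the test. Among all genes tested, 14.6% fell and 20.5% rose (35.1% in either direction). The 6 that fell were the receptor Pdgfrb, the proteoglycan gene Cspg4, Rgs5, and the contractile genes Acta2, Tagln and Myh11. The gene that rose was Cnn1, at a low level. The median log2 change of the 10 was −1.91, beside 0.18 over all genes tested. In REG vs MUT, 5 of the 10 rose, 1 fell and 4 did not pass, beside 11.8% higher and 24.8% lower among all genes, 36.6% in either direction. The member median was 1.27 beside −0.36. The same 7 members had MUT and WT libraries that did not overlap, beside 25.9% of all genes lower and 32.6% higher without overlap (58.5% in all). REG and MUT did not overlap for 6 members higher in REG and 1 lower, beside 14% and 28.5% of all genes (42.5% in all). These comparisons share the MUT libraries, so the 2 sets of changes are not independent. In REG vs WT, 0 of the 10 passed, and so did 0% of all genes.

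**Figure D1:**
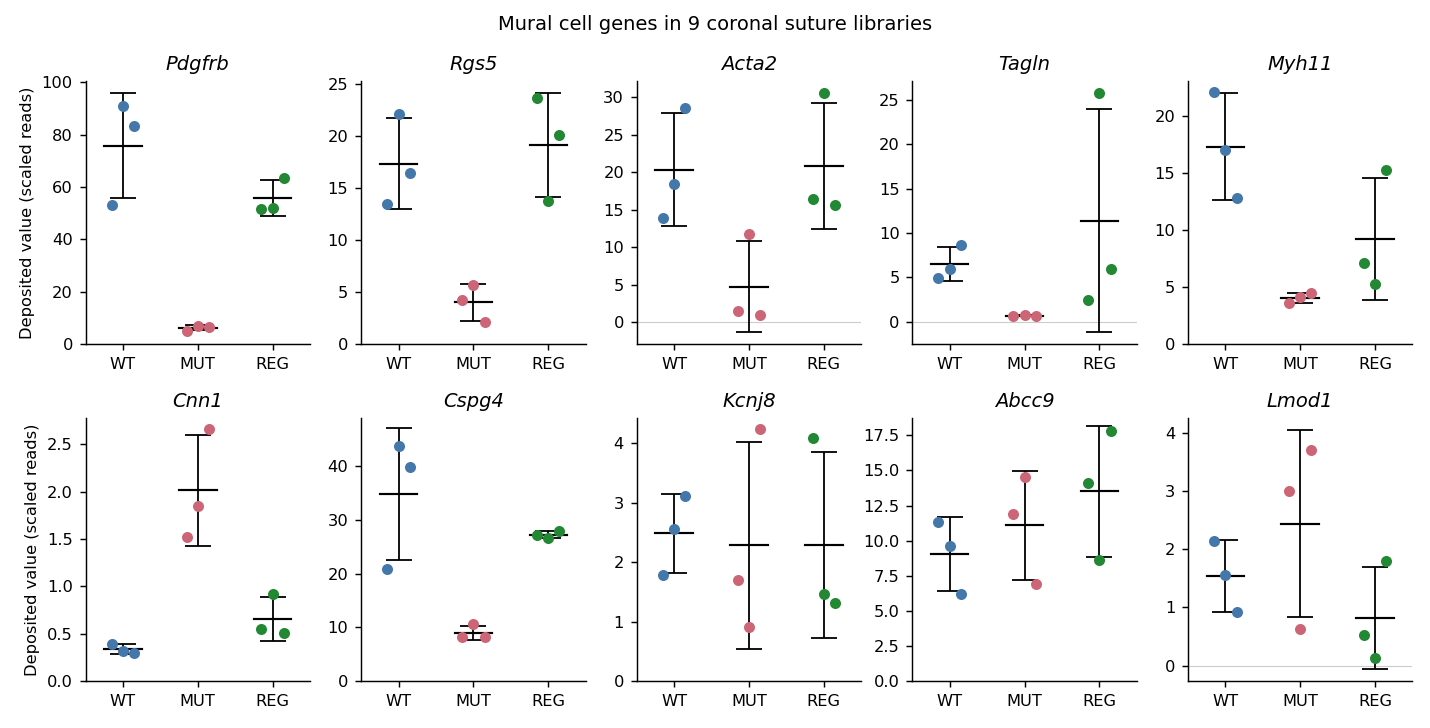
Deposited values (scaled reads, linear axis from 0 or just below) of the 10 mural genes in each library, by group; points are libraries, the wide bar is the mean and the whiskers are 1 SD (n = 3). The MUT points of Pdgfrb (5.19 to 6.92) lie far under those of WT and REG, while those of Abcc9, Kcnj8 and Lmod1 overlap both other groups.

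The pericyte receptor Pdgfrb (chr18:61045150-61085061, plus strand, mm10/GRCm38) is the gene on which mural cell recruitment depends. Its deposited value was 53.0, 91.0 and 83.3 in the WT libraries, 5.19, 6.92 and 6.66 in MUT and 51.5, 52.1 and 63.5 in REG. Every MUT library lay under every WT and REG library, and the REG libraries lay around and above the lowest WT library. The group means were 75.8 ± 20.1 in WT, 6.26 ± 0.93 in MUT and 55.7 ± 6.78 in REG (SD, n = 3). On the log2(value + 0.367) scale Pdgfrb fell by 3.50 (SE 0.34) in MUT vs WT (limma, adjusted p = 0.000722), which is 11.3-fold. It rose by 3.08 in REG vs MUT (adjusted p = 0.00101). REG vs WT gave −0.41 (adjusted p = 0.695). Pdgfrb is the member whose calls held under all 21 alternatives tried for MUT vs WT and all 23 for REG vs MUT.

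Cspg4 (chr9:56865033-56899870, plus strand) encodes NG2, a proteoglycan on the pericyte surface. It stood at 20.8, 43.7 and 39.9 in the WT libraries, 8.23, 10.5 and 8.17 in MUT and 27.3, 26.5 and 27.9 in REG. MUT again lay under both other groups, and the REG libraries were closely spaced inside the WT range. Cspg4 fell by 1.85 (SE 0.36) in MUT vs WT (limma, adjusted p = 0.00555) and rose by 1.57 in REG vs MUT (adjusted p = 0.00975). Both calls were lost under quantile scaling, total-read scaling and background subtraction, where MUT vs WT came to −0.83, −0.63 and −1.03.

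Rgs5 (chr1:169655501-169695813, plus strand) speeds the shutdown of G-protein signals and is a classical pericyte transcript. Its values were 13.4, 22.1 and 16.5 in the WT libraries, 4.25, 5.70 and 2.09 in MUT and 23.7, 13.8 and 20.1 in REG. MUT did not overlap WT or REG, and WT and REG spanned nearly the same range. It fell by 2.08 (SE 0.42) in MUT vs WT (limma, adjusted p = 0.00629) and rose by 2.22 in REG vs MUT (adjusted p = 0.00479). The fall was −0.91 (adjusted p = 0.0655) when libraries were scaled to total reads and −1.35 (adjusted p = 0.108) after background subtraction. The rise in REG passed under both.

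Kcnj8 and Abcc9 encode the pore and the regulatory subunit of the ATP-sensitive potassium channel of mural cells, which relaxes vessels when energy is short. They are neighbours on the minus strand of chromosome 6, with 16247 bases between them (Kcnj8 at chr6:142564837-142571614, Abcc9 at chr6:142587862-142702315). Kcnj8 stood at 1.78, 2.57 and 3.11 in the WT libraries, 1.69, 0.907 and 4.25 in MUT and 4.09, 1.47 and 1.31 in REG. Abcc9 stood at 11.3, 9.60 and 6.21 in the WT libraries, 11.9, 14.5 and 6.88 in MUT and 14.1, 8.58 and 17.8 in REG. The groups overlapped for both subunits in every comparison. Their log2 changes in MUT vs WT were −0.29 (SE 0.55) for Kcnj8 and 0.26 (SE 0.43) for Abcc9, neither called. Abcc9 was called higher in MUT under total-read scaling alone, at 1.47 (adjusted p = 0.0108), and its change was −0.09 under trimmed-mean scaling. An antisense gene, 5330439B14Rik, shares 158 exon bases with Abcc9, and its value was at most 0.57 in any library. The sources used here do not say whether counting used strand.

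The partner subunits of other tissues, Kcnj11 and Abcc8, which form the channel of pancreatic islet cells, did not pass in MUT vs WT with the deposited scaling either. Under total-read scaling 3 of the 4 channel subunits, all but Kcnj8, were called higher in MUT, beside 13836 of 32063 genes tested. Kcnj11 fell by 1.52 in REG vs MUT (limma, adjusted p = 0.0142), from 1.83, 1.24 and 1.18 to 0.169, 0.261 and 0.317. That made 1 of the 4 channel subunits lower and 0 higher in REG vs MUT, beside 24.8% of all genes lower. The Kcnj11 call was lost with quantiles, at −0.59 (adjusted p = 0.334), after background subtraction, at −1.15 (adjusted p = 0.185), and without MUT replicate 1, at −1.36 (adjusted p = 0.0515).

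Smooth muscle actin, Acta2 (chr19:34241090-34255590, minus strand), is the chief thin-filament protein of contractile mural cells. Its values were 13.9, 18.4 and 28.6 in the WT libraries, 1.41, 11.7 and 0.985 in MUT and 16.4, 30.5 and 15.6 in REG. The MUT libraries were split, with replicate 2 just under the lowest WT library and replicates 1 and 3 far below it. Acta2 fell by 2.69 (SE 0.74) in MUT vs WT (limma, adjusted p = 0.0205) and rose by 2.72 in REG vs MUT (adjusted p = 0.0182). The fall was not called with quantiles (−2.68), with total reads (−1.58) or after background subtraction (−2.08), with adjusted p from 0.063 to 0.114. The rise was not called with quantiles (2.82), after background subtraction (2.46) or with only the 2 groups compared, with adjusted p from 0.0538 to 0.07. Without MUT replicate 1 or MUT replicate 3 the fall was −2.29 (adjusted p = 0.0773) and −2.10 (adjusted p = 0.0771). Without WT replicate 2 or WT replicate 3 it was −2.72 (adjusted p = 0.0642) and −2.41 (adjusted p = 0.0769). Without MUT replicate 1 or 3 the rise in REG was 2.32 (adjusted p = 0.0725) and 2.13 (adjusted p = 0.0707). With MUT replicate 2 as the only MUT library, which is assumed to vary like the other groups, MUT vs WT came to −0.72 (adjusted p = 0.44). Acta2 shares most of its coding sequence with Acta1, Actc1 and Actg2, and how reads matching several of them were counted is not given in the sources used here.

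Tagln (chr9:45929619-45936058, minus strand) encodes transgelin, an actin-binding protein of early smooth muscle. It stood at 4.95, 5.94 and 8.67 in the WT libraries, 0.656, 0.734 and 0.680 in MUT and 2.45, 25.8 and 5.96 in REG. MUT was narrow and low, and REG replicate 2 lay far above all other libraries. Tagln fell by 2.67 (SE 0.68) in MUT vs WT (limma, adjusted p = 0.0148) and rose by 2.87 in REG vs MUT (adjusted p = 0.0103). Without REG replicate 2 the rise was 2.00 and kept its call. The fall was not called without WT replicate 2, at −2.71 (adjusted p = 0.0518), or without WT replicate 3, at −2.46 (adjusted p = 0.0595). With a pseudocount 10 times larger neither change was called, at −1.21 and 1.46. Tagln shares 1241 exon bases with the antisense gene Gm48529 and 108 with Pcsk7 on the other strand, so reads of these genes may be mixed. Gm48529 ranged from 1.32 to 2.48 in the WT libraries, 0.345 to 1.59 in MUT and 0.156 to 3.37 in REG, a different order from that of Tagln.

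Myh11 (chr16:14194535-14291372, minus strand), the smooth muscle myosin heavy chain and the most restricted marker of mature smooth muscle here, stood at 22.1, 16.99 and 12.8 in WT. It was 3.62, 4.13 and 4.45 in MUT and 7.08, 5.29 and 15.2 in REG. MUT lay under both other groups, and 2 of the 3 REG libraries lay under all WT libraries. Myh11 fell by 1.96 (SE 0.43) in MUT vs WT (limma, adjusted p = 0.00816). Its REG vs MUT value was 0.98 (SE 0.43), which did not pass (adjusted p = 0.0984). It passed without REG replicate 2, at 1.29 (adjusted p = 0.0358), and under trimmed-mean scaling, at 1.63 (adjusted p = 0.00948). Its REG vs WT value of −0.99 had the lowest unadjusted p of the 10 members, and its adjusted p was 0.517 in limma.

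Cnn1 (chr9:22099216-22109630, plus strand) encodes calponin 1, a thin-filament protein of differentiated smooth muscle. Unlike the other contractile members it was lowest in WT, at 0.395, 0.321 and 0.290. It stood at 1.53, 1.85 and 2.66 in MUT and at 0.545, 0.918 and 0.503 in REG, so that the 3 groups did not overlap at all. Cnn1 rose by 1.73 (SE 0.34) in MUT vs WT (limma, adjusted p = 0.00523) and fell by 1.21 in REG vs MUT (adjusted p = 0.0194). The reads behind it were few: 13.0, 11.2 and 11.1 estimated reads in WT, and 92.5, 17.6 and 126 in MUT. The rise in MUT passed under each of the 5 ways of scaling, between 1.36 and 2.66. The fall in REG vs MUT did not pass under trimmed-mean scaling (−0.70), quantile scaling (−0.61) or background subtraction (−1.62), or without MUT replicate 3 (−1.03, adjusted p = 0.0655).

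Lmod1 (chr1:135324807-135368065, plus strand) encodes leiomodin 1, which nucleates actin filaments in smooth muscle. Its values were 2.14, 1.55 and 0.917 in the WT libraries, 3.00, 0.622 and 3.70 in MUT and 0.519, 0.130 and 1.80 in REG. The groups overlapped in every comparison. The log2 changes were 0.38 in MUT vs WT, −1.27 in REG vs MUT and −0.90 in REG vs WT, each with an SE of 0.66, and limma called none. In REG vs MUT it was called lower without MUT replicate 2, at −1.91 (adjusted p = 0.0385), without REG replicate 3, at −1.84 (adjusted p = 0.0482), and under total-read scaling, at −2.09 (adjusted p = 0.0471).

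**Figure D2:**
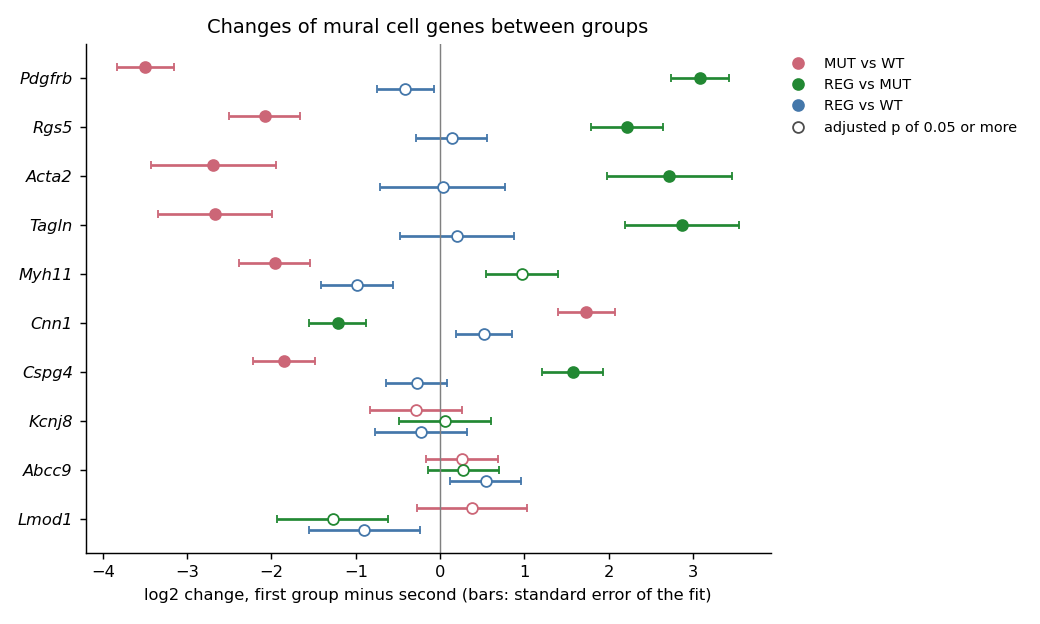
Log2 changes of the 10 members in the 3 comparisons (horizontal axis, first group minus second, on the log2(value + 0.367) scale); bars are the standard error of the fit, filled points passed an adjusted p of 0.05. Pdgfrb has the lowest change in MUT vs WT (−3.50), Cnn1 the only filled point above 0 there, and no REG vs WT point is filled.

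Per unit of exon length the order of the members differed between groups. On the RPKM scale (estimated reads per kilobase of exon, scaled to the depth of the library), WT was led by Pdgfrb at 28.1 and Acta2 at 18.9, whose libraries overlapped. Rgs5 (7.72), Tagln (6.70), Cspg4 (5.89) and Myh11 (4.68) came next, each overlapping the one after it. Abcc9 (2.21), Kcnj8 (1.97), Lmod1 (0.789) and Cnn1 (0.233) closed the WT order, of which only Abcc9 and Kcnj8 overlapped. In MUT the levels lay close together, from 8.06 for Acta2, with an SD of 8.57, down to 1.63 for Tagln. Abcc9 (6.27), Pdgfrb (5.63), Kcnj8 (4.94) and Rgs5 (4.07) stood between them. REG was again led by Pdgfrb at 26.6 and Acta2 at 25.8, followed by Tagln at 16.1, where the SD of 19.3 exceeded the mean. Cnn1 (0.635) and Lmod1 (0.484) were lowest in REG.

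The background weighed unevenly on these genes. In MUT the receptor density times exon length came to 100%, 57.8% and 83.5% of the Tagln reads of replicates 1, 2 and 3, so little or none of the MUT signal of Tagln stood above it. For Pdgfrb the same share was 34.9%, 14.8% and 22.8%, and for Cspg4 47.8%, 21.1% and 40.5%. For Acta2 it was 51.9% and 63.1% in replicates 1 and 3 but 3.50% in replicate 2, the library with 116 estimated Acta2 reads. Cnn1 carried background in all groups, with 23.8% to 32.8% in WT, 28.7% to 59.7% in MUT and 6.93% to 11.1% in REG. Lmod1 reached 100% in MUT replicate 2 and 76.2% in REG replicate 2. For Pdgfrb, Rgs5, Acta2, Tagln, Myh11 and Cspg4 the share was at most 3.30% in every WT and REG library.

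**Figure D3:**
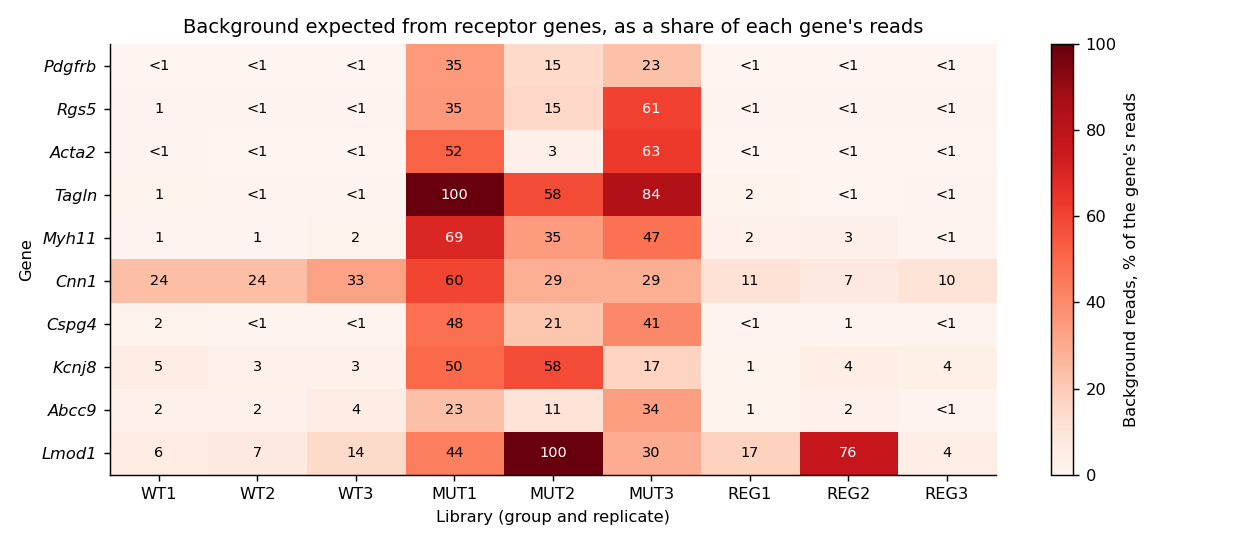
Share of each member's reads that the receptor-gene density predicts, in percent (colour and number), for each gene (rows) and library (columns). The MUT columns hold the darkest cells, up to 100% for Tagln in MUT replicate 1 and Lmod1 in MUT replicate 2. MUT replicate 2 is light for several genes, such as Acta2 (3.50%), Abcc9 (10.7%) and Pdgfrb (14.8%). WT and REG stay light apart from Cnn1 and Lmod1.

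Since the MUT libraries differed this much, the calls in MUT vs WT were read under other scalings. The deposited upper-quartile scaling and trimmed-mean scaling each gave 6 members lower and 1 higher. Quantile scaling gave 4 lower (Pdgfrb, Rgs5, Tagln and Myh11) and 1 higher. Background subtraction gave 2 lower (Pdgfrb and Tagln) and 1 higher, and scaling to total reads gave 1 lower (Pdgfrb) and 2 higher (Cnn1 and Abcc9). With MUT replicate 2, the MUT library of least background and least depth, as the only MUT library, 1 member was lower (Pdgfrb) and 1 higher (Cnn1). The direction of the 7 called members, 6 lower and 1 higher, was the same under all 5 scalings. Over all genes, 5964 were called higher and 4261 lower with the deposited scaling, 13836 and 933 with total reads, 3423 and 852 after background subtraction, 3726 and 5575 with trimmed means, and 2682 and 2499 with quantiles. The median over all genes in MUT vs WT moved from 0.18 to 1.16 under total-read scaling, and to −0.13 under trimmed-mean scaling. Relative to the median of all genes, the member median was −2.09 with the deposited scaling, −2.13 with trimmed means and −1.07 with quantiles. It was −1.87 with total reads and −1.47 after background subtraction. In REG vs MUT the members higher and lower were 6 and 0 with trimmed means, 3 and 0 with quantiles, 3 and 0 after background subtraction and 4 and 2 with total reads. Over all genes REG vs MUT gave 3432 higher and 7221 lower with the deposited scaling, 6051 and 4345 with trimmed means, 1890 and 2310 with quantiles, 819 and 3151 after background subtraction, and 1064 and 13616 with total reads.

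**Figure D4:**
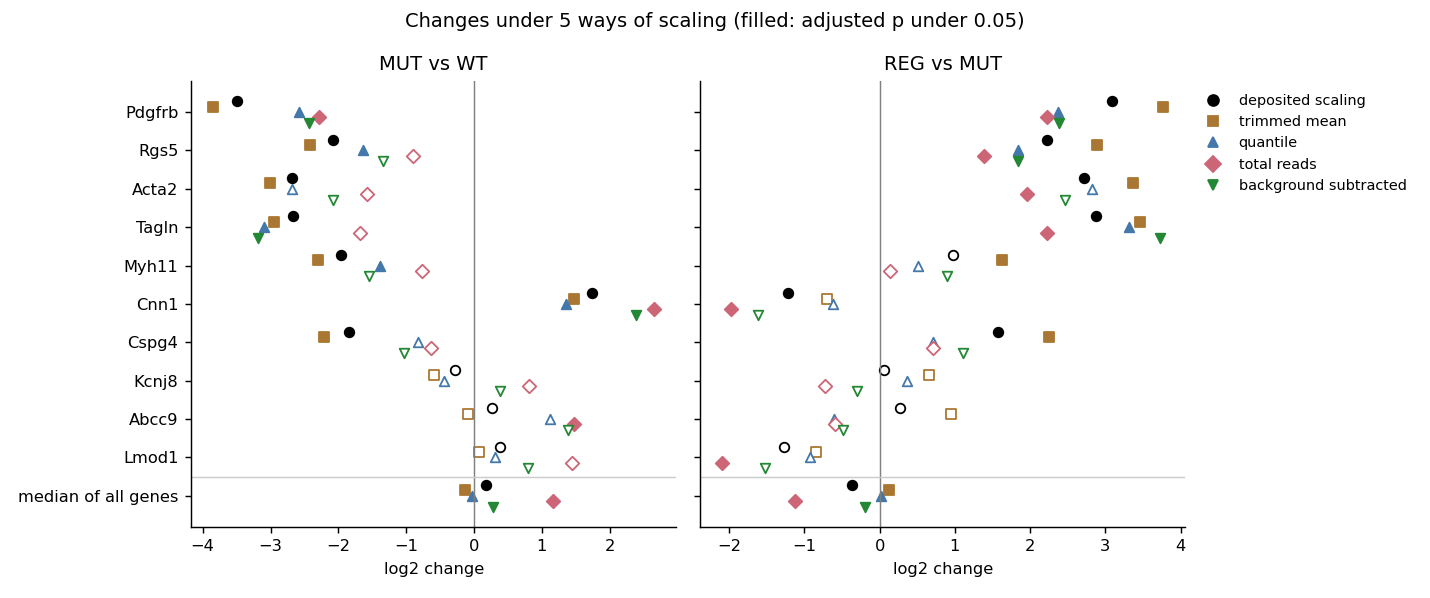
Log2 change of each member (rows; bottom row, median of all genes tested) in MUT vs WT (left) and REG vs MUT (right) under 5 ways of scaling (symbols); filled symbols passed an adjusted p of 0.05. Pdgfrb stays at −2.28 or below in MUT vs WT under all 5, and Cnn1 at 1.36 or above.

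A ratio of 2 genes within a library does not depend on the scaling between libraries. The pairs below were chosen after the values were seen and were given no test. The per-length ratio of Pdgfrb to Abcc9 was 7.15, 14.5 and 20.6 in the WT libraries, 0.666, 0.723 and 1.48 in MUT and 5.59, 9.28 and 5.45 in REG. With background subtracted the MUT ratios were 0.564, 0.689 and 1.73, still under all other libraries. The ratio of Acta2 to Cnn1 was 46.9, 77.8 and 134 in the WT libraries, 1.15, 8.23 and 0.455 in MUT and 38.0, 41.9 and 40.6 in REG. Every MUT ratio of this pair lay under every WT and REG ratio. Pdgfrb to Pecam1, a junction protein of endothelial cells, was 2.49, 3.73 and 4.26 in the WT libraries, 0.837, 0.809 and 1.58 in MUT and 3.47, 4.52 and 2.48 in REG. Rgs5 to Pecam1 behaved otherwise, with 0.761, 1.09 and 1.01 in WT and 0.826, 0.8005 and 0.593 in MUT, which overlap, and 1.92, 1.44 and 0.942 in REG. Pdgfrb to Pdgfra, the receptor paralog of fibroblasts, was 2.20, 1.82 and 1.96 in the WT libraries, 0.877, 0.324 and 1.43 in MUT and 2.45, 2.64 and 1.91 in REG.

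Some genes are in more than 1 of the lists that follow, so the list counts are not independent. Notch3 and Ednra are both pericyte markers and recruitment signals, and Tek and Tie1 both recruitment signals and endothelial markers. Pdgfra is a recruitment signal, a paralog and a fibroblast marker. Heyl is a pericyte marker and a regulator, and Rgs4 a pericyte marker and a paralog. List counts under the deposited scaling are to be read beside the shares of all genes given above. These are 14.6% lower and 20.5% higher in MUT vs WT, and 11.8% higher and 24.8% lower in REG vs MUT. Other settings had other shares. In MUT vs WT, total reads gave 13836 higher and 933 lower of 32063 genes, and background subtraction 3423 and 852 of 24218. Trimmed means gave 3726 and 5575 of 28659, and quantiles 2682 and 2499 of 29107. In REG vs MUT these settings gave, in the same order, 1064 and 13616, 819 and 3151, 6051 and 4345, and 1890 and 2310. The wider contractile apparatus of smooth muscle, 25 genes without the members, had 12 lower, 1 higher and 12 not called in MUT vs WT. Its median was −1.17 with the deposited scaling and −0.058 under total-read scaling. Relative to the median of all genes, which also moved, it was −1.35 and −1.22. Background subtraction gave 5 lower and 1 higher of the 24 genes then tested, and total-read scaling 6 lower and 3 higher of the 25. The genes of smallest p were Ppp1r14a, an inhibitor of myosin phosphatase, at −3.28 (adjusted p = 0.000742, limma), Mylk, the myosin light chain kinase, at −4.04, and Smtn, smoothelin, at −3.61. Mylk stood at 245, 217 and 178 in the WT libraries, 9.72, 15.4 and 13.0 in MUT and 76.2, 54.0 and 187 in REG. Of the 25, 11 rose and 2 fell in REG vs MUT, led by Tpm2, a tropomyosin of thin filaments, at 3.82, Ppp1r14a at 2.35 and Vcl, vinculin, at 2.31. These counts were 4 and 1 after background subtraction, 8 and 4 with total reads, 7 and 2 with quantiles and 14 and 1 with trimmed means. Ppp1r14a and Vcl were not called in REG vs MUT with quantiles (1.41 and 1.37) or after background subtraction (1.28 and 1.51). The 1 gene of these 25 called higher in MUT with the deposited scaling was Kcnmb1, a subunit of the large potassium channel of smooth muscle, named here after its values were seen. Like Cnn1 it was low in WT, at 0.215, 0.318 and 0.669, against 2.78, 2.89 and 4.43 in MUT, a rise of 2.30 (adjusted p = 0.00511). It fell by 2.32 in REG vs MUT.

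The other pericyte markers were less uniform. Of 21, Higd1b stayed under the filter with at most 0.296 in any library, and of the 20 tested 6 were lower, 1 higher and 13 not called in MUT vs WT. Their median of −0.59 turned to 0.32 under total-read scaling, where 1 was lower and 4 were higher. Relative to the median of all genes, which also moved, it was −0.77 and −0.84. Notch3, the Notch receptor of mural cells, fell by 2.46 (adjusted p = 0.00503, limma). Ndufa4l2, a mitochondrial protein enriched in pericytes, fell by 1.62 (adjusted p = 0.02). The call of Ndufa4l2 was lost without WT replicate 1, 2 or 3 and without MUT replicate 1 or 3, where the largest adjusted p was 0.0694. It was also lost with total reads (−0.81) and after background subtraction (−1.73). After surgery, in REG vs MUT, 3 of the 20 rose and 3 fell: Mcam, an adhesion protein, rose by 2.12, while Atp13a5, a transport ATPase, fell by 1.82 and P2ry14, a nucleotide receptor, by 1.44. The counts higher and lower were 0 and 0 after background subtraction, 0 and 3 with total reads, 1 and 1 with quantiles and 5 and 1 with trimmed means. Mcam was not called with total reads (1.34) or after background subtraction (2.01), and P2ry14 not with trimmed means (−0.84) or after background subtraction (−1.47). Atp13a5 was not called with quantiles (−0.97), and after background subtraction it was not among the 19 markers tested.

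Among 18 transcription regulators of mural cells, 6 were lower and 1 higher in MUT vs WT, and 3 were higher and 3 lower in REG vs MUT. Their median in MUT vs WT was −0.80 and turned to 0.38 under total-read scaling, where 3 were lower and 6 higher. Relative to the median of all genes it was −0.98 and −0.78. The REG vs MUT counts were 5 higher and 1 lower with trimmed means and 2 higher and 6 lower with total reads. Srf, serum response factor, stood at 16.0, 15.6 and 20.1 in the WT libraries, 3.68, 1.95 and 1.59 in MUT and 17.1, 16.6 and 12.6 in REG. It fell by 2.73 (adjusted p = 0.0015, limma) and rose by 2.57 in REG vs MUT. Tbx2, a T-box factor, moved by −2.96 and 2.46 in these comparisons, and Foxf2, a forkhead factor of brain pericytes, by −3.63 in MUT vs WT. Foxf2 was not called after background subtraction (−2.85). Gata6, a zinc-finger factor of smooth muscle, fell by 1.98 in REG vs MUT (adjusted p = 0.00678).

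The signals that recruit mural cells had 11 of 21 genes lower and 0 higher in MUT vs WT (median −1.38), and 8 higher and 0 lower in REG vs MUT (median 1.42). The MUT vs WT median was −0.20 under total-read scaling, where 5 were lower and 1 higher, and 2 were lower and 0 higher after background subtraction. Relative to the median of all genes it was −1.56 with the deposited scaling and −1.37 with total reads. The 8 higher in REG vs MUT became 1 with quantiles, 1 after background subtraction, 2 with 2 lower under total reads, and 16 with trimmed means. Jag1, a Notch ligand, stood at 18.2, 29.5 and 31.9 in the WT libraries, 3.81, 3.97 and 4.16 in MUT and 20.1, 22.1 and 21.0 in REG, which gave −2.59 and 2.30. Eng, endoglin, a co-receptor of endothelial cells, gave −2.95 and 2.495, and Tgfbr2, a receptor for transforming growth factor beta, rose by 1.66 in REG vs MUT. The Eng fall was not called after background subtraction (−2.10). Neither the Eng nor the Tgfbr2 rise was called with quantiles (1.93 and 0.71), with total reads (1.66 and 0.78) or after background subtraction (2.00 and 0.77). Pdgfb, the ligand of PDGFRB, was added after its values were seen. It stood at 7.69, 9.71 and 9.87 in the WT libraries, 3.69, 2.35 and 3.93 in MUT and 6.52, 17.1 and 8.71 in REG, with −1.38 (adjusted p = 0.0272, limma) and 1.51 (adjusted p = 0.0181). Its fall was not called without WT replicate 1, 2 or 3 or MUT replicate 1 or 2, where it ranged from −1.49 to −1.17 with adjusted p from 0.0557 to 0.0939. Nor was the fall called with quantiles (−0.97), with total reads (−0.20) or after background subtraction (−0.51). The rise of Pdgfb in REG vs MUT was not called under these settings either, at 1.12, 0.68 and 0.99.

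Paralogs, which are related genes outside the mural set, were compared with the members. Cnn3, the widely expressed calponin, stood at 34.5, 40.5 and 41.3 in the WT libraries, 2.27, 3.10 and 3.52 in MUT and 30.5, 31.6 and 29.8 in REG. It fell by 3.57 (adjusted p = 0.000408, limma) and rose by 3.24, the opposite directions to Cnn1. Of the 12 paralogs 5 were lower and 1 higher in MUT vs WT. Their median of −0.62 turned to 0.20 after background subtraction and 0.45 under total-read scaling. Relative to the median of all genes it was −0.80, −0.08 and −0.71. The paralogs that fell included Myh9 at −2.64 and Myh10 at −2.52, the non-muscle myosins. Neither was called with quantiles (−1.09 and −1.40) or after background subtraction (−1.19 and −1.52), and Myh10 was also lost with total reads (−1.29). The 1 higher was Lmod2, the leiomodin of striated muscle, which fell by 1.57 in REG vs MUT. This fall was not called with quantiles (−0.60). Higher in REG vs MUT were 4 of the 12, among them Cnn2 at 1.71. Cnn2 was not called with quantiles (0.84) or after background subtraction (0.71). The cytoplasmic actins Actb and Actg1 gave −1.25 and −1.61 in MUT vs WT and rose by 1.72 and 2.08 in REG vs MUT. The Actb value in MUT vs WT turned to 0.34, 0.0043 and 0.25 under quantile scaling, total-read scaling and background subtraction, and it was not called without WT replicate 1, 2 or 3 or MUT replicate 1 or 3. Actg1 came to −0.40, −0.36 and −0.14 under the same settings, not called. Neither actin's rise in REG vs MUT was called under quantile scaling (0.64 for Actb, 1.03 for Actg1) or background subtraction (0.58 and 0.97).

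Markers of other cells of the suture moved in the same comparisons. Of 12 fibroblast markers all 12 fell in MUT vs WT (median −3.62) and 10 rose in REG vs MUT (median 3.24), led by Postn, periostin (−5.85 and 5.96), Col3a1 (−8.13 and 7.19) and Vim (−4.05 and 4.04). After background subtraction 7 fell and 7 rose in these comparisons. Their summed level, in RPM (estimated reads scaled to the depth of the library), was 63850 to 101546 in the WT libraries, 8286 to 47075 in MUT and 43607 to 84063 in REG, and 1 of the 12 had 0 reads in MUT replicate 2. Of 16 endothelial markers 5 fell and 0 rose in MUT vs WT, with Erg at −1.98, Sox18 at −4.57 and Pecam1 at −1.78. Their median was −1.15, and 0.01 under total-read scaling. Relative to the median of all genes it was −1.33 and −1.15. The falls of Erg and Pecam1 were not called with total reads (−0.80 and −0.57) or after background subtraction (−0.97 and −0.75). That of Pecam1 was also lost with quantiles (−0.91). Of the 16, 4 rose and 0 fell in REG vs MUT, Erg by 1.40, Pecam1 by 1.39 and Emcn by 1.14. With quantiles and with total reads these counts were 0 higher and 1 lower, after background subtraction 0 and 0, and with trimmed means 8 and 0. The Erg rise was not called with quantiles (0.99), with total reads (0.57) or after background subtraction (0.74). The same held for the rises of Pecam1 and Emcn. The summed RPM of the endothelial markers was 411 to 476 in the WT libraries, 235 to 637 in MUT and 330 to 571 in REG. The Pecam1 rise was not called without MUT replicate 1, MUT replicate 3 or REG replicate 3 (adjusted p from 0.0589 to 0.0815). The Emcn rise was not called without WT replicate 2 or 3, MUT replicate 1 or 2, or REG replicate 2 (adjusted p from 0.0501 to 0.0645). Skeletal muscle markers, 14 genes, had 2 higher and 0 lower in MUT vs WT, and 7 higher and 1 lower in REG vs MUT. These REG vs MUT counts were 8 and 0 with trimmed means and 7 and 0 with quantiles. They were 2 and 1 with total reads and 3 and 0 after background subtraction. In REG vs WT 0 were called, with a median of 3.08 beside −0.18 over all genes. There 11 of the 14 had an unadjusted p under 0.05 (limma), beside 9.47% of all genes. These markers differed most among the REG libraries. Their summed RPM was 64.1 to 288 in the WT libraries, 342 to 761 in MUT, and 2415, 3202 and 240 in REG replicates 1, 2 and 3, with 1 of the 14 at 0 reads in WT replicates 1 and 3. The part of fibroblasts, endothelium, skeletal muscle and background in the changes of the mural genes was not tested.

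**Figure D5:**
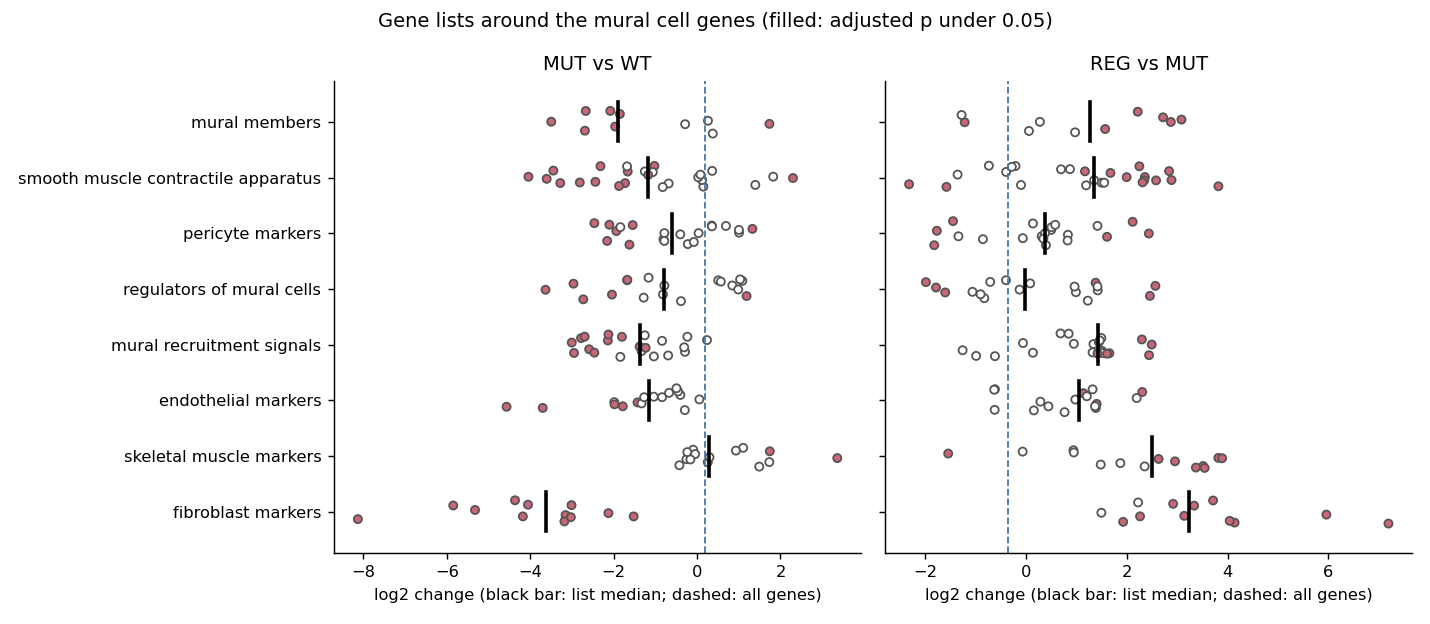
Log2 changes (horizontal axis) of the genes in 8 lists, 1 point per gene tested, with MUT vs WT on the left and REG vs MUT on the right; black bars are list medians, the dashed line is the median of all genes and filled points passed an adjusted p of 0.05. The fibroblast markers lie lowest in MUT vs WT (median −3.62), and the mural members hold filled points on both sides of 0.

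Across the 9 libraries, the mean of the 10 members on a standardized log2 scale ran most closely with Pdgfrb (Pearson r 0.977), Cspg4 (0.941) and Rgs5 (0.931). Kcnj8 (0.155) and Abcc9 (0.089) had values near 0, Lmod1 gave −0.263 and Cnn1 −0.936. On deviations from the group means the same measure was lower for most members: 0.910 for Pdgfrb, 0.760 for Cspg4, 0.475 for Rgs5, 0.361 for Acta2, 0.356 for Myh11 and −0.063 for Tagln. These values include each member in the mean and are given as a description over 9 libraries that share depth and background. Among 18454 other genes with a mean value of at least 1, the 10 with the highest r to that mean were Setd1a (0.994), Slc25a3, Plxnb2, Ddx39b, Axl, Actn1, Dnm2, P4ha1, Zfr and Il17re (0.989). None of these is in the lists of mural genes used here. By deviations from the group means they were Rps28 (0.969), Zfr, Trpm7, Ddx3x, Bclaf1, Ank, Lama4, Wac, Itpripl2 and Rbm41 (0.944), with Zfr alone in both sets.

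REG was compared with WT for all 10 members, to ask how far operated Twist1+/- sutures stood from wild type. The log2 changes ran from −0.99 for Myh11 to 0.54 for Abcc9, with a median of −0.10 beside −0.18 over all genes. A value that misses the threshold does not show equal levels, and the SE of these changes ran from 0.34 for Cnn1 and Pdgfrb to 0.74 for Acta2. Cnn1 was the single member whose REG and WT libraries did not overlap (0.52, adjusted p = 0.617, limma), beside 4.03% of all genes tested higher without overlap and 16.1% in either direction. At an unadjusted p under 0.05, 1 of 10 members (Myh11) and 2755 genes (9.47%) passed. Without REG replicate 3, the REG library lowest in skeletal muscle genes, 410 genes were called higher and 1186 lower in REG vs WT, and 0 of the 10 members were among them. In the authors' deposited table the log2 ratios of REG over WT for the members ran from −0.91 for Lmod1 and Myh11 to 0.97 for Cnn1, and the FDR was 0.478 or more for each. The authors' deposited table gave an FDR under 0.05 for the same 7 members in MUT over WT, and gave Cnn1 an FDR of 0.0677 in REG over MUT.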

How the data were processed

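Single-end RNA sequencing (75 cycles, NextSeq500, per the labels' protocols) of 9 coronal suture libraries gave the data. The submitters' processing notes name STAR 2.6.1d, Partek and the mm10 build. How reads were counted, with which annotation, and how they were normalized is not given in the sources used here. What the authors deposited is a signal: from the values themselves, estimated reads plus 1, multiplied by a library factor, with the 75th percentile near 2.76 in every library. Matrix columns were tied to genes by 4 statistics of the authors' deposited table (43644 of 43644 within a relative tolerance of 1e-06, 43484 of them unique), which also gives their log2 ratios, p-values and FDR.

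Estimated reads are the value divided by the lowest value of its library, less 1. Exon lengths and positions came from GENCODE M21 (GRCm38). limma 3.58.1 in R 4.3.3 was fitted to log2(value + 0.367) over all 9 libraries, with 0.367 (1 millionth of the median column sum) in 3 or more libraries as the filter, Benjamini-Hochberg adjustment over 29107 genes and calls at an adjusted p under 0.05. The code was tested on simulated data. The members and lists were chosen with earlier results of these data known. Named besides the members are Twist1, paralogs, the 3 genes of smallest p per list and comparison, and the 10 genes nearest to the member mean. A gene that this rule names is not reported here. Trimmed-mean, quantile and total-read scaling, background subtraction, other filters, pseudocounts and models, a replicate block and libraries left out were alternatives. Groups follow the sample titles. The name of 1 MUT library column does not state its group. The design text speaks of 1 week after induction, which the labels do not explain.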

Additional observations from a re-analysis of the deposited data

How the results depend on the processing

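The calls that changed with the processing, in MUT vs WT: members lower were 1 with total reads, 2 after background subtraction and 1 with MUT replicate 2 as the only MUT library, against 6. Members higher were 2 with total reads and 0 under a filter 10 times stricter, against 1. In every comparison that filter left 7 of the 10 members, without Cnn1, Kcnj8 and Lmod1, and 11449 genes in place of 29107. Cnn1 was therefore not tested under it. The member median of −1.91 became −2.26 with trimmed means, −1.10 with quantiles, −0.70 with total reads, −1.19 after background subtraction, −1.31 with a pseudocount 10 times larger and −1.33 with MUT replicate 2 alone. All genes higher (5964) were 3726, 2682, 13836 and 3423 under the trimmed-mean, quantile, total-read and background settings, 910 under the stricter filter and 2329 with MUT replicate 2 alone. All genes lower (4261) were 2499, 933 and 852 under the quantile, total-read and background settings and 1736 with MUT replicate 2 alone.

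In REG vs MUT, members higher were 3 with quantiles, 3 after background subtraction and 1 with MUT replicate 2 alone, against 5. Members lower were 0 with trimmed means, quantiles, background subtraction, the stricter filter, only the 2 groups compared or MUT replicate 2 alone, and 2 with total reads or with REG replicates 1 and 2 alone, against 1. The member median of 1.27 became 1.94, 0.61, 0.42 and 1.00 under the trimmed-mean, quantile, total-read and background settings. It was 2.22 over the 7 members left by the stricter filter, which did not test Cnn1. It was 0.98 with the larger pseudocount, 0.93 with MUT replicate 2 alone and 1.71 with REG replicate 3 alone. All genes higher (3432) were 6051, 1890, 1064 and 819 under the trimmed-mean, quantile, total-read and background settings, 1724 with only 2 groups and 1400 with MUT replicate 2 alone. All genes lower (7221) were 4345, 2310, 13616 and 3151 under those settings, 872 under the stricter filter, 3965 with only 2 groups and 2864 with MUT replicate 2 alone.

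In REG vs WT the member median of −0.10 turned to 0.21, 0.027, 0.23 and 0.24 under the trimmed-mean, quantile, total-read and background settings. It was 0.031 over the 7 members left by the stricter filter, 0.024 without WT replicate 3 and 0.059 without REG replicate 3. With REG replicates 1 and 2 alone 410 genes were called higher and 1186 lower.

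Leaving out 1 library at a time gave 4 to 6 members lower and 1 to 1 higher in MUT vs WT, with a median from −1.98 to −1.75, and 2638 to 7232 genes higher and 1873 to 5524 lower. The lowest of these counts came without WT replicate 2, and the number higher also moved by over 1.5 times without WT replicate 1 (3723), WT replicate 3 (2978) or MUT replicate 1 (3924). It gave 4 to 6 members higher and 0 to 2 lower in REG vs MUT, a median from 1.05 to 1.44, 2283 to 4280 genes higher and 5201 to 7426 lower. In REG vs WT it gave 0 to 0 members, a median from −0.31 to 0.059, and 0 to 410 genes higher and 0 to 1186 lower.

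Of the members not called with the deposited scaling, Kcnj8 in MUT vs WT turned to 0.81 (total reads), 0.39 (background) and 0.14 (without MUT replicate 2), Abcc9 to −0.090 (trimmed means), and Lmod1 to −0.0092 (without MUT replicate 3) and −0.89 (MUT replicate 2 alone). Leaving out 1 library moved Kcnj8 between −0.79 and 0.14 and Lmod1 between −0.0092 and 1.01. In REG vs MUT Kcnj8 turned to −0.72 (total reads), −0.29 (background), −0.018 (without MUT replicate 1), −0.36 (without MUT replicate 2), −0.39 (without REG replicate 1) and −0.45 (REG replicate 3 alone). Abcc9 there turned to −0.61, −0.59 and −0.49 under the quantile, total-read and background settings, −0.022 without MUT replicate 3 and −0.16 with MUT replicate 2 alone, and Twist1 to −0.095 with MUT replicate 2 alone. Leaving out 1 library moved Kcnj8 between −0.39 and 0.56 and Abcc9 between −0.022 and 0.56. In REG vs WT, where 0 members were called, Rgs5 turned to −0.027 without WT replicate 1 and −0.029 without REG replicate 1 (up to 0.35 with others left out). Acta2 turned to −0.21, −0.0055 and −0.28 without WT replicate 1, WT replicate 2 and REG replicate 2, and −0.31 with REG replicate 3 alone (up to 0.31 with others left out). Tagln turned to −0.67 without REG replicate 2 and −0.087 with REG replicate 3 alone (up to 0.94 with others left out). Cspg4 turned to 0.051, 0.075 and 0.078, and Kcnj8 to 0.063, 0.086 and 0.092, under the trimmed-mean, total-read and background settings. Kcnj8 also turned to 0.032 without REG replicate 3 (from −0.67 with others left out), and Lmod1 to 0.24 with REG replicate 3 alone. Actb in MUT vs WT turned to 0.34, 0.0043 and 0.25 under the quantile, total-read and background settings. The cause of these changes was not tested.

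The replicate numbers showed no pairing: correlations of the deviations of same-numbered libraries ran from −0.196 to 0.102. For libraries of different numbers they ran from −0.218 to 0.379, highest for WT replicate 2 and REG replicate 3. Whether libraries were paired in another way was not tested. With the replicate number as a block the same members were called in each comparison, and 8766, 9373 and 0 genes were called in MUT vs WT, in REG vs MUT and then in REG vs WT. The Emcn call was lost under the block (adjusted p = 0.0549). Depth limits the low values most: MUT replicate 2 held 5.23 estimated reads of Lmod1, 6.35 of Tagln and 8.09 of Kcnj8, and WT replicate 3 held 11.1 of Cnn1.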

Other observations

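REG replicate 2 stood apart in several vessel-related genes, which were picked after their values were seen and given no test. Rgs16, a relative of Rgs5 that also regulates G-protein signals, stood at 137 there and at most 3.40 in the other 8 libraries. Heyl, a Notch target of mural cells, stood at 53.8 against at most 5.28 elsewhere. Itga8, an integrin subunit of smooth muscle and other contractile cells, stood at 62.2 against at most 7.55. Of the members, Tagln also had its highest value in that library (25.8 against at most 8.67 elsewhere), as did Acta2 (30.5 against at most 28.6). Myh11 had its lowest REG value there (5.29), as did Rgs5, Cspg4, Abcc9 and Lmod1.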
